A study of Mus musculus with 9 samples.

Results

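The liver X receptors and the genes through which they drive cholesterol out of the cell were described across untreated, LPS-treated and BMS303141-treated mouse macrophages. The set was fixed by name as 7 genes, namely the receptors Nr1h3 and Nr1h2, their partner Rxra, and the receptors' target genes Abca1, Abcg1, Apoe and Mylip. All 7 were among the 12204 genes of the deposited table, each with 1 Ensembl identifier, and all 7 passed the filter on low values.

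Liver X receptors are nuclear receptors that bind oxysterols and some other sterols, and so report to the nucleus that a cell holds an excess of cholesterol. They sit on DNA as heterodimers with a retinoid X receptor, at paired AGGTCA-like elements spaced by a few bases. Without a bound sterol they hold corepressors, and with one they recruit coactivators. In macrophages, which take up lipoproteins and dying cells, their targets export cholesterol to apolipoproteins and to high-density lipoprotein, and they are known to dampen inflammatory genes.

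Macrophages were grown from bone marrow of C57/Bl6J mice for 6 days in medium with 20% supernatant of L929 cells, a fibroblast line that secretes macrophage growth factor. The 3 untreated libraries (labelled UT) came from such cells with nothing added. The 3 LPS libraries came from cells given 10 ng/ml LPS, the bacterial lipopolysaccharide sensed by Toll-like receptor 4, for 4 h. The 3 libraries labelled LPS + BMS came from cells that had 50 µM BMS303141, an inhibitor of ATP-citrate lyase, for 1 h before LPS at the same dose and time. No group had the inhibitor without LPS, no vehicle is named, and the source of each replicate (mouse, dish or aliquot) is not given, and a p-value here speaks of variation among the libraries alone, possibly of technical origin. ATP-citrate lyase makes the cytosolic acetyl-CoA from which sterols and histone acetyl groups are built, and the study asked how it bears on the response to Toll-like receptor signalling.

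Values are log2 CPM (read counts scaled to a common library total), where a difference of 1 is a doubling. Reads were taken from the 3′ ends of messenger RNA, and levels are compared between groups, not between genes. Steps between the low values put the depth at about 1.83 M to 5.05 M (mega) reads per library, with LPS replicate 1 the shallowest. That library also stood apart on the second principal component (-63.1, against -18.0 to 26.0 in the others), so the effect of leaving it out is given for the 7 genes in each comparison that uses LPS libraries and for each list count or named gene that it moved. Among the pathway genes named by rule, Rarg and Cyp27a1 lost a call without it. All 8 macrophage markers were listed, at a summed 8043 to 8673 CPM in untreated, 4066 to 4941 in LPS and 4823 to 4927 CPM in inhibitor libraries. Of 8 neutrophil markers 3 were listed (S100a8, S100a9 and Csf3r), and their summed level was 8.84 to 31.4 CPM in untreated, 41.3 to 69.0 in LPS and 184 to 272 CPM in inhibitor libraries. Ly6g, Elane, Mpo, Camp and Ltf of that list had no row. Most of the summed level with the inhibitor was S100a8, at 7.80, 7.42 and 8.04 log2 CPM. S100a9 reached at most 2.74 and Csf3r at most 3.68 log2 CPM there. Of dendritic cell markers 1 of 6 was listed (Itgax, 3.04 to 4.19, 13.5 to 22.5 and 4.77 to 5.36 CPM in the same order of groups) and of mast cell and basophil markers 1 of 5 (Hdc, 2.21 to 2.59, 106 to 118 and 60.5 to 77.2 CPM). Of lymphocyte markers 1 of 7 was listed (Lck, at most 7.53 CPM), of erythroid markers 0 of 6 and of stromal markers 3 of 6 (summed, at most 15.3 CPM). In such bulk samples fewer cells of a type and less RNA per cell cannot be told apart.

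The upstream sequence of Abca1 is shown first, because Abca1 was the member with a higher level after LPS and a higher level again with the inhibitor, and because its promoter holds a textbook liver X receptor element. The stretch is the 250 bases before the annotated start of Abca1 in RefSeq (GRCm38.p6, chr4:53159896-53160145, minus strand), with capitals for the matched letters.
Abca1: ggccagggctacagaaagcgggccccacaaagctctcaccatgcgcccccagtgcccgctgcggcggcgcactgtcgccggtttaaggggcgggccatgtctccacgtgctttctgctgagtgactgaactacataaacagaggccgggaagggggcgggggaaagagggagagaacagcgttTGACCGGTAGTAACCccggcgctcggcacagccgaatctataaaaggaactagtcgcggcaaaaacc
Read on the other strand the capitals are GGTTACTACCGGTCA, and they lie from -67 to -53 relative to the start. They match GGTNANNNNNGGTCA, a loose form of a direct repeat with 4 spacer bases. This form omits the first base of the first element and leaves the C of that element free, where the Abca1 site has T. The first base of the second element is also free. The letters of this form were chosen after this window had been read, so the match in Abca1 was fixed by that choice. Both strands of the 250 bases upstream of every start in the RefSeq table (here a window) were searched, and 58 of 32851 windows (0.177%) held a match. RefSeq windows were matched for 6 of the 7 genes (Abca1, Apoe, Nr1h2, Nr1h3, Rxra and Mylip; 10 windows), and Abca1 held the only match among them. The strict repeat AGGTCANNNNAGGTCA was found in 5 windows of the table (0.0152%), none of them of a member. The single element AGGTCA, which also lies within the strict repeat, was found in 14% of windows and, among the members, in 1 of the Rxra windows, where it occurred on both strands. The NF-kB-like letters GGGANNTTCC were in 1.21% of windows and in none of the members' windows. A match describes letters and not a bound site.

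LPS lowered 4 of the 7 genes (Rxra, Abcg1, Mylip and Apoe), raised Abca1 and left both receptor genes without a call. By limma at an adjusted p under 0.05, 47% of all 12196 tested genes were called in this comparison, 21.5% higher and 25.4% lower. Against those shares stand 5 calls among the 7 genes, 1 higher and 4 lower, with no test of the excess because the genes were chosen with results known. The median difference of the 7 was -0.89 on the log2 scale, against -0.06 over all tested genes. The inhibitor, compared with LPS alone, gave 2 calls, both higher (Abca1 and Rxra), where 2.12% of tested genes were called and 0.959% were called higher and 1.16% lower. Each of these calls ended in several of the fits without 1 library, as described with each gene. Compared with untreated cells, macrophages with the inhibitor and LPS had 1 member higher and 4 lower, where 47.1% of tested genes were called, 21.5% higher and 25.6% lower.

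**Figure D1:**
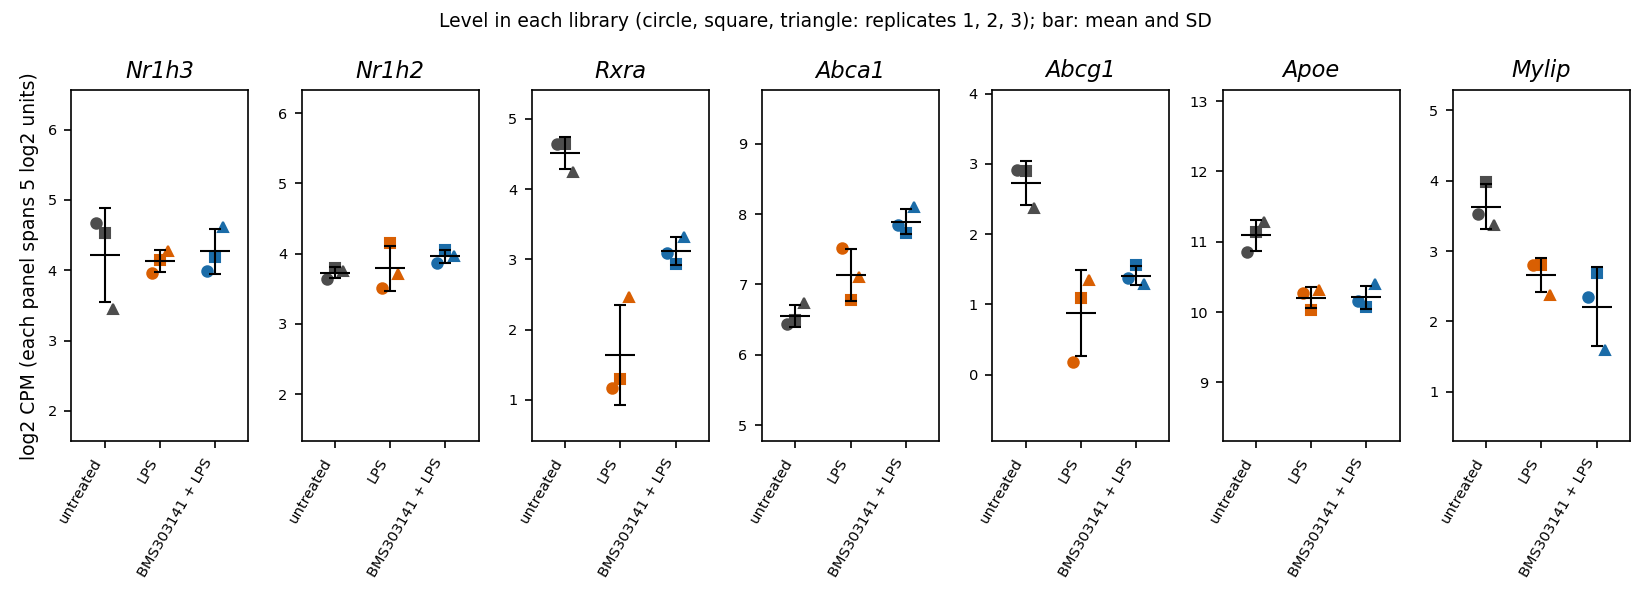
Level of each of the 7 genes in log2 CPM (y axis, 5 log2 units in every panel) in untreated, LPS and BMS303141 + LPS libraries (x axis). Symbols are the 3 replicates and bars the mean and SD; Rxra falls from 4.51 to 1.64 with LPS and lies at 3.11 with the inhibitor, while Abca1 goes from 6.56 to 7.13 and 7.89.

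The 2 receptor genes showed no detectable change. Nr1h3 encodes LXR alpha, the form abundant in macrophages, liver and fat (ENSMUSG00000002108, chromosome 2, 91184061 to 91202834 in GRCm38, minus strand, protein-coding). It was at 4.67, 4.53 and 3.46 log2 CPM in the untreated libraries, 3.97, 4.14 and 4.28 in the LPS libraries and 3.99, 4.19 and 4.62 in the inhibitor libraries. Untreated replicate 3 was the lowest of all 9 and untreated replicate 1 the highest, so the untreated range covered both other groups. The group means were 4.22 ± 0.67, 4.13 ± 0.15 and 4.27 ± 0.32 (SD, n = 3 each). LPS minus untreated was -0.09 (95% interval -0.70 to 0.52, adjusted p = 0.822, limma), and inhibitor minus LPS was 0.14 (-0.48 to 0.75, adjusted p = 0.859, limma). Without LPS replicate 1 these were -0.0090 and 0.058. Both signs depended on the setting, as given with the alternatives.

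Nr1h2 encodes LXR beta, the form found in most tissues (ENSMUSG00000060601, chromosome 7, 44549616 to 44553951, minus strand, protein-coding). Its values were 3.64, 3.79 and 3.75 log2 CPM untreated, 3.51, 4.14 and 3.71 with LPS and 3.87, 4.06 and 3.96 with the inhibitor. The LPS libraries spanned all untreated values, while every inhibitor library lay above every untreated one. LPS minus untreated was 0.06 (95% interval -0.37 to 0.49, adjusted p = 0.830, limma), inhibitor minus LPS 0.17 (-0.26 to 0.60, adjusted p = 0.726) and inhibitor minus untreated 0.23 (-0.20 to 0.66, adjusted p = 0.359). Without LPS replicate 1 the first was 0.20 and the second 0.033. None of the 3 passed the test, and the order of the 3 group means is within their spread.

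Rxra, a heterodimer partner of the receptors, had the largest difference of the 7 with LPS and between the inhibitor and LPS. It encodes retinoid X receptor alpha (ENSMUSG00000015846, chromosome 2, 27676440 to 27762957, plus strand, protein-coding), which also pairs with PPAR, retinoic acid and vitamin D receptors. It was at 4.65, 4.65 and 4.24 log2 CPM untreated, 1.17, 1.30 and 2.46 with LPS and 3.08, 2.93 and 3.32 with the inhibitor. The 3 groups did not overlap, and LPS replicate 3 was the one LPS library near the inhibitor range. LPS lowered Rxra 7.30-fold, by a log2 difference of -2.87 (SE 0.32, adjusted p = 6.85e-06, limma), and by -2.63 without LPS replicate 1. Inhibitor minus LPS was 1.47 (SE 0.32, adjusted p = 0.0294, limma), a 2.77-fold higher level, and inhibitor minus untreated was -1.40 (SE 0.32, adjusted p = 0.00268). The order of levels was therefore untreated, inhibitor with LPS, then LPS alone, with each neighbouring pair called.

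The fall of Rxra with LPS kept its call in all 18 alternative fits, but its higher level with the inhibitor did not. That call ended without untreated replicate 2 (adjusted p = 0.0563), LPS replicate 1 (0.0567, difference 1.23) or 2 (0.0911), or inhibitor replicate 1 (0.115), 2 (0.0738) or 3 (0.147), all by limma. It also ended without a mean trend (adjusted p = 0.0919) and with only the compared groups in the fit (0.0745). Over the fits with 1 library removed the difference ranged from 1.23 to 1.88. The LPS values correspond to about 4.13, 7.32 and 17.6 reads, against 27.6 to 35.6 reads with the inhibitor and 60.9 to 127 reads in untreated libraries, so the LPS level is the least precise of the 3. Some markers of other cells also differed between the inhibitor and LPS: S100a8 was higher by 2.29 (adjusted p = 0.00377, limma), Itgax was at -1.68 (0.00587) and Hdc at -0.70 (0.0319). The other tested neutrophil markers were not called: S100a9 was at 0.49 (adjusted p = 0.863, limma) and Csf3r at 0.29 (0.713). The part of these markers of other cells in the results for Rxra, Abca1 and the pathway genes was not tested.

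With LPS, Abca1 went the other way from Abcg1, Apoe and Mylip. ABCA1 moves cholesterol and phospholipid onto lipid-poor apolipoprotein A-I and is a standard readout of liver X receptor activity (ENSMUSG00000015243, chromosome 4, 53030787 to 53159895, minus strand, protein-coding; upstream sequence above). Its levels were 6.44, 6.50 and 6.73 log2 CPM untreated, 7.52, 6.78 and 7.10 with LPS and 7.85, 7.74 and 8.10 with the inhibitor. No groups overlapped, although LPS replicate 2 lay only just above untreated replicate 3. LPS minus untreated was 0.58 (SE 0.17, adjusted p = 0.0131, limma), a 1.49-fold rise, and 0.38 without LPS replicate 1 (adjusted p = 0.0350). That call ended without a mean trend in the variance (adjusted p = 0.0514). Inhibitor minus untreated was 1.34 (SE 0.17, adjusted p = 2.61e-05, limma), a 2.53-fold rise that kept its call in all 18 alternatives.

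Between the inhibitor and LPS alone, Abca1 differed by 0.76 (SE 0.17, adjusted p = 0.0344, limma), or 1.69-fold. Without the shallow LPS replicate 1, which had the highest LPS value, the difference was 0.95 (adjusted p = 0.00303). The call ended without untreated replicate 2 (adjusted p = 0.0616), LPS replicate 2 (0.103) or 3 (0.103), or inhibitor replicate 1 (0.124), 2 (0.0704) or 3 (0.186). It also ended with centring on ribosomal protein genes (adjusted p = 0.146), without a mean trend (0.149) and with only the compared groups fitted (0.0522). The difference kept its sign throughout, between 0.58 and 0.95. At 327 reads or more in every library, counting error is small for this gene.

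**Figure D2:**
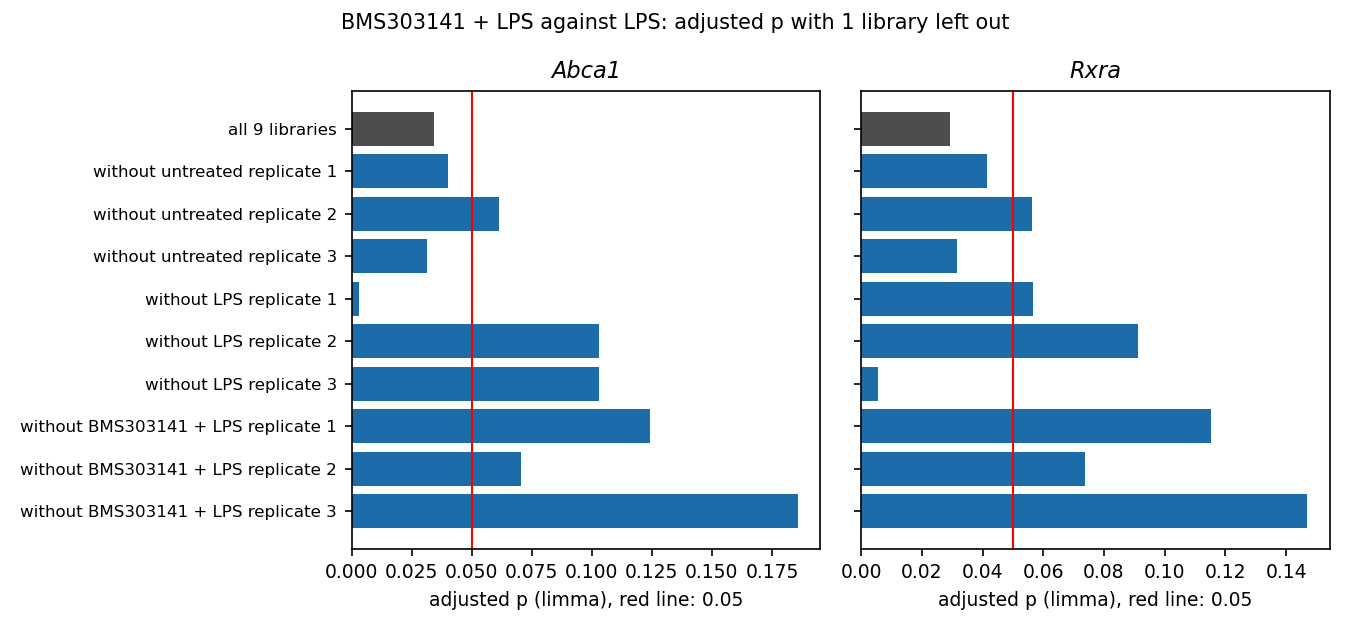
Adjusted p of Abca1 and Rxra for BMS303141 + LPS against LPS (x axis, starting at 0) with all 9 libraries (grey) and with each library left out (blue, y axis). The red line marks 0.05; the largest values, 0.186 for Abca1 and 0.147 for Rxra, come without inhibitor replicate 3.

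Abcg1, the companion transporter that adds cholesterol to mature high-density lipoprotein, fell (ENSMUSG00000024030, chromosome 17, 31057675 to 31117988, plus strand, protein-coding). It was at 2.92, 2.89 and 2.37 log2 CPM untreated, 0.18, 1.09 and 1.35 with LPS and 1.38, 1.56 and 1.29 with the inhibitor. Every treated library was below every untreated one, while the LPS and inhibitor ranges overlapped. LPS lowered it 3.61-fold (-1.85, SE 0.38, adjusted p = 0.00119, limma), and by -1.51 without LPS replicate 1. Inhibitor minus LPS was 0.53 (95% interval -0.28 to 1.34, adjusted p = 0.540) and 0.19 without LPS replicate 1 (adjusted p = 0.888), and inhibitor minus untreated was -1.32 (SE 0.38, adjusted p = 0.0111). In LPS replicate 1 the value rests on about 2.08 reads, and in no LPS or inhibitor library on more than 10.7.

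The 2 transporters, usually named together as targets of the same receptors, thus changed unequally. The log2 ratio of Abca1 to Abcg1 within a library was 3.52, 3.60 and 4.36 untreated, 7.34, 5.69 and 5.75 with LPS and 6.47, 6.18 and 6.81 with the inhibitor. The untreated values lay below all others, and the LPS and inhibitor values overlapped. This ratio was chosen after the values had been seen and is given without a test.

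Apoe, the secreted apolipoprotein that accepts cholesterol and carries it to lipoprotein receptors, fell with LPS (ENSMUSG00000002985, chromosome 7, 19696109 to 19699188, minus strand, protein-coding). It was at 10.85, 11.14 and 11.29 log2 CPM untreated, 10.27, 10.03 and 10.32 with LPS and 10.16, 10.07 and 10.39 with the inhibitor. All treated libraries were below all untreated ones, and the 2 treated groups overlapped. LPS lowered it 1.85-fold (-0.89, SE 0.13, adjusted p = 8.72e-05, limma; -0.92 without LPS replicate 1). Inhibitor minus LPS was 0.00 (95% interval -0.28 to 0.28, adjusted p = 0.996), the narrowest interval among the 7 genes, and 0.033 without LPS replicate 1. Inhibitor minus untreated was -0.88 (SE 0.13, adjusted p = 9.39e-05).

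Mylip encodes IDOL, a ubiquitin ligase that limits the uptake of lipoprotein cholesterol (ENSMUSG00000038175, chromosome 13, 45389742 to 45412022, plus strand, protein-coding). It was at 3.53, 3.99 and 3.37 log2 CPM untreated, 2.80, 2.80 and 2.38 with LPS and 2.35, 2.69 and 1.60 with the inhibitor. Both treated groups lay below the untreated one and overlapped each other, with inhibitor replicate 3 the lowest. LPS lowered it 1.96-fold (-0.97, SE 0.31, adjusted p = 0.0190, limma; -1.04 without LPS replicate 1). The call ended without untreated replicate 2 (adjusted p = 0.0919) or LPS replicate 3 (0.0722) and with ribosomal protein centring (0.0520). Inhibitor minus LPS was -0.45 (95% interval -1.11 to 0.21, adjusted p = 0.528; -0.38 without LPS replicate 1), and inhibitor minus untreated -1.42 (SE 0.31, adjusted p = 0.00191), 2.67-fold lower.

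**Figure D3:**
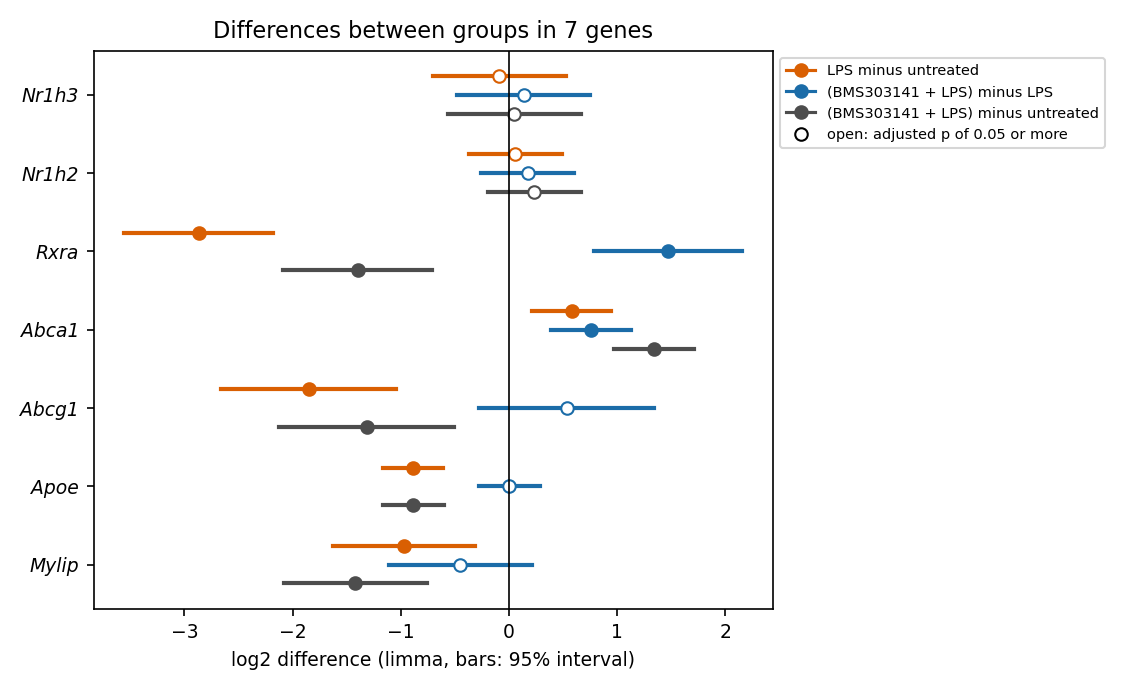
Log2 difference (x axis) of each of the 7 genes (y axis) in the 3 comparisons, by limma, with 95% intervals; filled points have an adjusted p under 0.05. Abca1 lies right of 0 in all 3 comparisons, and Rxra lies at -2.87 with LPS and at 1.47 for the inhibitor against LPS.

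No other gene with a row in the table overlaps a member in GENCODE M21, so shared reads with an overlapping listed gene were not a limit here. The pattern most like each member was sought as the smallest root mean square difference between centred log2 CPM profiles over the 9 libraries, a description that depends mostly on the 3 group means. For Rxra the nearest were Zc3h12d (0.25) and Rassf2 (0.26). Both were low with LPS and between the other groups with the inhibitor: Rassf2 averaged 6.83 log2 CPM untreated, 3.78 with LPS and 5.20 with the inhibitor. For Abca1 the nearest were Tuba4a (0.18) and Rai14 (0.18), with Tuba4a at 5.99, 6.64 and 7.23. For Abcg1 they were Ift74 (0.11) and Mocos (0.15), for Apoe Lrwd1 (0.10) and Clec4a2 (0.10), and for Mylip Apbb2 (0.19) and Naprt (0.20). For the receptor genes they were Rbm26 (0.06) and Fopnl (0.08) beside Nr1h2, and Ufsp2 (0.14) and Vamp4 (0.17) beside Nr1h3. Among the members themselves the closest pair was Nr1h2 and Nr1h3 (0.39) and the farthest Abca1 and Rxra (1.55).

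The wider liver X receptor programme was mostly lower with LPS. Of 17 other target genes 13 were tested, 8 were called lower (7 without LPS replicate 1) and none higher by limma, where 25.4% of all tested genes were lower and 21.5% higher, and the list median was -0.78 against -0.06 over all tested genes. Arl4c, a small GTPase linked to cholesterol transport to the surface, fell by 4.50 on the log2 scale (SE 0.20), and Mertk, the receptor for engulfing dying cells, fell by 4.14 (SE 0.24). The lipoprotein lipase gene Lpl fell by 2.08 (SE 0.11) and the fatty acid desaturase gene Fads1 by 2.31 (SE 0.26). Apoc1, Apoc2, Apoc4 and Fads2 had no row.

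With the inhibitor, 1 of the 13 tested targets was called against LPS, as higher, where 0.959% of all tested genes were higher and 1.16% lower. Arl4c was at 3.82, 3.00 and 3.75 log2 CPM with LPS and at 4.90, 5.07 and 5.08 with the inhibitor, after 8.16, 7.84 and 8.09 untreated. The level was 2.82-fold higher (SE 0.20 on the log2 scale, adjusted p = 0.00185, limma) and kept its call in all 18 alternatives. Scd2, a stearoyl-CoA desaturase, differed by 1.54 (95% interval 0.71 to 2.37) without passing the test (adjusted p = 0.0578; 1.07 and 0.0926 without LPS replicate 1), and Srebf1, the lipogenic transcription factor, by 0.73 (0.03 to 1.42, adjusted p = 0.312); both were named after their values were seen. Scd2 did pass with a replicate block (adjusted p = 0.0422, limma), with a weight per library (0.0101) and without LPS replicate 2 (0.0432). In all, 5 of the 13 had an unadjusted p under 0.05 by limma. Besides Arl4c, Scd2 and Srebf1 these were Elovl5, higher by 0.73 (adjusted p = 0.288, limma), and Lpl, at -0.31 (0.213). These last values were also named after being seen, and were not followed through the alternatives. No share of all tested genes under that unadjusted limit is given here. The count of 5 and those in the other lists are therefore not read as an excess. The list median was 0.17, against 0.00 over all tested genes.

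**Figure D4:**
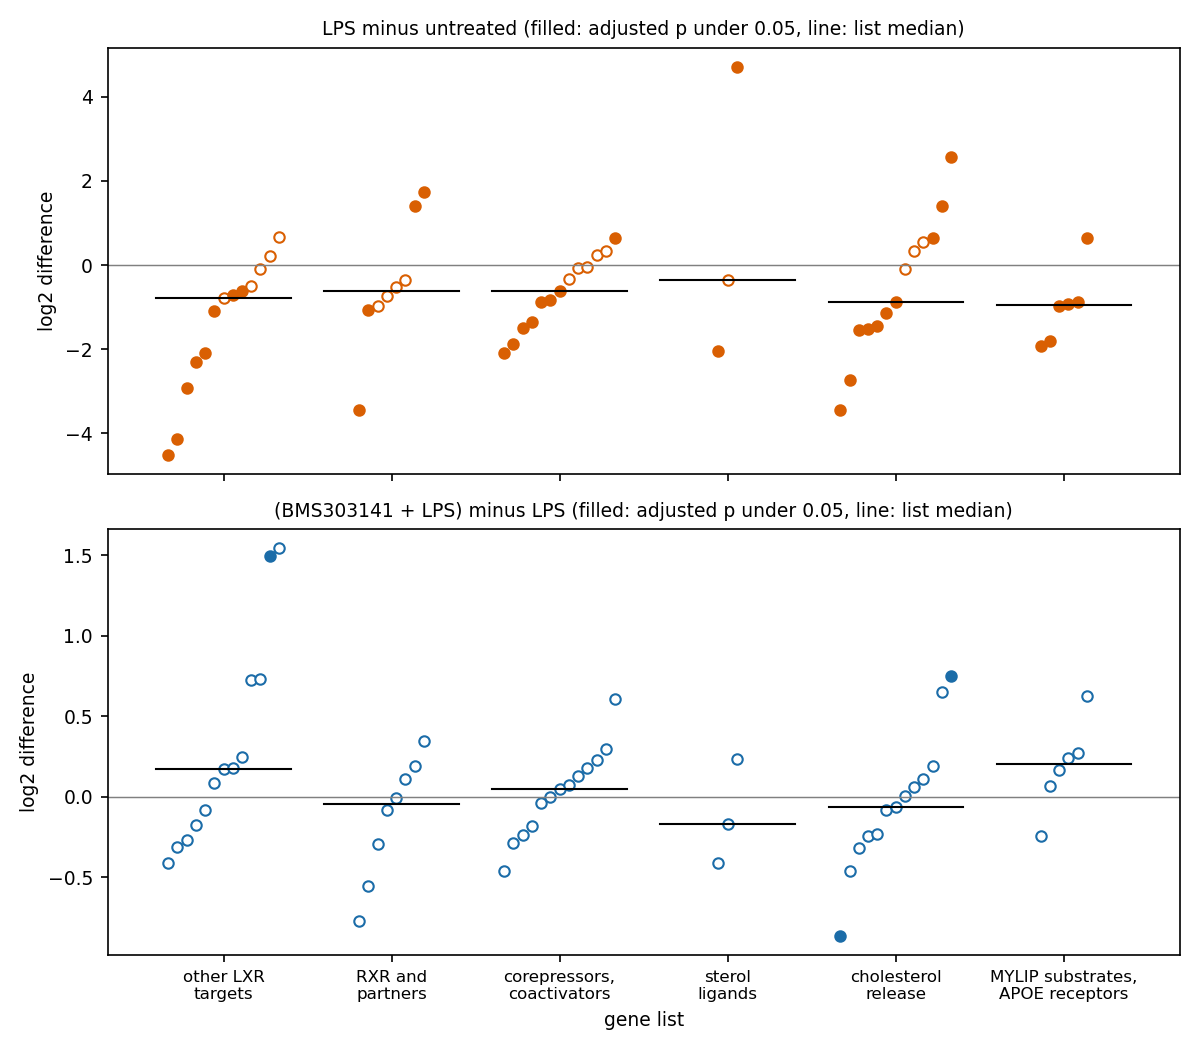
Log2 difference (y axis) of every tested gene in 6 lists of pathway genes (x axis), LPS minus untreated above and BMS303141 + LPS minus LPS below, with different y scales. Filled points have an adjusted p under 0.05 and lines are list medians; the upper panel has 30 genes lower and 8 higher among filled points in all, and the lower panel has 3 filled points, Arl4c, Scarb1 and Gramd1b.

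Of 8 tested genes for other retinoid X receptors and partner receptors (of 14 listed), LPS lowered 2 and raised 2, close to the shares over all tested genes (25.4% and 21.5%). Pparg, the lipid-sensing receptor that also acts upstream of Nr1h3, fell by 3.44 (SE 0.29) and Rxrb, the second retinoid X receptor, by 1.06 (SE 0.18). Ppard rose by 1.73 (SE 0.28) and the retinoic acid receptor gene Rarg by 1.39 (SE 0.42), but its call ended on removing untreated replicate 2 (adjusted p = 0.0753, limma) or LPS replicate 1 (0.0532). Without LPS replicate 1 the counts were 3 lower and 1 higher. None of the 8 was called between the inhibitor and LPS by limma, where 2.12% of all tested genes were called. At that share, lists this short can be without a call and not differ from other genes. Of the 8, 1 had an unadjusted p under 0.05, and Rxrb differed by -0.01 (95% interval -0.40 to 0.38).

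Genes of the cofactors were tested in full, 13 of 13, and 7 fell and 1 rose with LPS, against 25.4% and 21.5% of all tested genes. The corepressor gene Ncor1 fell by 0.83 (SE 0.11), and Tbl1xr1, a subunit of the same complex, by 2.08 (SE 0.18). The coactivator gene Ncoa3 fell by 1.36 (SE 0.17), and Med1, a Mediator subunit that nuclear receptors contact, was the one gene that rose (0.65, SE 0.12). Thus both kinds of cofactor gene were among those that fell. With the inhibitor none of the 13 was called against LPS by limma, where 2.12% of all tested genes were called. Of the 13, 3 had an unadjusted p under 0.05, and the list median was 0.05.

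Of the 7 genes that make or remove sterol ligands, 3 were tested. Ch25h, which makes the oxysterol 25-hydroxycholesterol, was at the lowest value of the library in untreated replicates 2 and 3 and at -1.97 log2 CPM in replicate 1, and at 2.91, 2.30 and 1.82 with LPS. It was called higher (adjusted p = 1.34e-05, limma), but the size of the rise is imprecise at that floor. Cyp27a1, which makes 27-hydroxycholesterol, was called lower at -2.04 (SE 0.63), at levels near the floor, and lost the call without untreated replicate 1 (adjusted p = 0.0510) or 2 (0.0692) or LPS replicate 1 (0.0507). With the inhibitor none of the 3 was called against LPS by limma, where 2.12% of all tested genes were called. Of the 3, 0 had an unadjusted p under 0.05, and Ch25h was at -0.42 (95% interval -1.62 to 0.79).

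Of 13 tested genes that free, esterify or move cholesterol (of 15 listed), 7 fell and 3 rose with LPS, against 25.4% and 21.5% of all tested genes. Without LPS replicate 1 the counts were 7 and 5. The list mixes genes of opposite direction, so its counts do not describe release or outward transport alone. Nceh1 and Lipa, which release cholesterol from its esters, fell by 3.44 (SE 0.17) and 2.73 (SE 0.14), and Scarb1, the high-density lipoprotein receptor, fell by 1.55 (SE 0.16). Gramd1a, a carrier of cholesterol from the plasma membrane to the endoplasmic reticulum, rose by 2.56 (SE 0.13), and its relative Gramd1b by 0.65 (SE 0.16). With the inhibitor 1 of the 13 was called higher than with LPS alone and 1 lower, against 0.959% and 1.16% of all tested genes. Scarb1 was higher by 0.75 (SE 0.16, adjusted p = 0.0236, limma) and Gramd1b was at -0.87 (SE 0.16, adjusted p = 0.0112). Scarb1 was at 3.51, 3.68 and 3.61 log2 CPM with LPS and 4.26, 4.30 and 4.49 with the inhibitor, without overlap. Gramd1b was at 6.18, 5.76 and 5.78 with LPS and 5.05, 5.15 and 4.91 with the inhibitor, close to the untreated 5.11, 5.23 and 5.42. The Scarb1 call ended without LPS replicate 3 (adjusted p = 0.0690) or inhibitor replicate 1 (0.0814), 2 (0.0747) or 3 (0.135), and also with ribosomal protein centring (0.0729) and only the compared groups (0.0558). The Gramd1b call ended without inhibitor replicate 1 (adjusted p = 0.0608) or 3 (0.0840) and without a mean trend (0.0602).

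On the uptake side, 5 of the 6 tested genes for substrates of IDOL and receptors of apolipoprotein E were called lower with LPS, against 25.4% of all tested genes. Lrp1 fell by 1.93 (SE 0.10) and Trem2, a lipid and apolipoprotein receptor of macrophages, by 1.80 (SE 0.11). With the inhibitor none of the 6 was called against LPS by limma, where 2.12% of all tested genes were called. Of the 6, 1 had an unadjusted p under 0.05, and the list median was 0.20.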

How the data were processed

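Messenger RNA 3′ ends were measured in 9 libraries of bone marrow-derived macrophages, 3 per group, from 100 ng total RNA with the Lexogen QuantSeq forward kit and 16 PCR cycles, per the labels' protocols. No molecular identifiers are mentioned, so PCR copies are counted and precision by reads covers counting error only. Per the submitters' processing notes limma, edgeR, MultiQC, featureCounts 1.5.1 and STAR 2.5.2b were among the tools, with no roles stated, and GRCm38 (mm10) was the build. For annotation, strand setting and low-count filter, the answer is "not given in the sources used here". As deposited, each value is a score that reads as log2 CPM after quantile normalisation: converted to CPM, a library totals 987472 to 987498. Such normalisation hides a shift common to most genes. No count model or pseudocount was used, because raw counts were not used here.

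Symbols were matched for 12181 of 12204 identifiers (23 unmatched). Genes at 0 log2 CPM or more in 3 libraries were tested (12196; 8 removed) in limma 3.58.1 (R 4.3.3) with a mean per group over all 9 libraries, a mean trend, two-sided tests and Benjamini-Hochberg adjustment over all tested genes. SE is the moderated standard error. Read numbers are approximate, from the spacing of distinct values 5 to 40 of each library. The steps were tested on simulated data. The members and lists were chosen with earlier results of these data known. Named genes are the 7 members, up to 4 called members of each list and comparison with the smallest adjusted p, the 2 genes most like each member (predicted genes left out), and markers of other cell types. Genes outside this rule are Med1, Scd2, Srebf1 and Elovl5, named after their values were seen. Alternatives were a replicate term, no filter and one of 10 CPM, 3 other scalings, no trend, only the compared groups, a weight per library and leaving out each library. Some genes of the lists are counted but not reported here by name.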

Additional observations from a re-analysis of the deposited data

How the results depend on the processing

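Over 18 alternatives, the 7 genes kept direction and call in 342 of 375 values, lost a call in 21 and changed sign in 12; the named pathway genes did so in 911, 15 and 0, and Scd2 gained one in 3. The sign changes were all of uncalled differences. For LPS minus untreated, Nr1h3 was 0.0862 with ribosomal protein centring and -0.47 to 0.14 over the fits without 1 library, and Nr1h2 -0.12 to 0.20. For inhibitor minus LPS, Apoe was -0.055 with ribosomal protein centring, -0.055 with a weight per library and -0.091 to 0.073 without 1 library, and Nr1h3 -0.038 to 0.28. For inhibitor minus untreated, Nr1h3 was -0.13 with a weight per library and -0.33 to 0.28 without 1 library. The count of the 7 called between inhibitor and LPS was 2, but 1 with ribosomal protein centring, 0 without a mean trend, 0 with only the compared groups and 0 to 2 without 1 library. Among all genes that comparison gave 117 higher and 141 lower, 43 and 56 without a mean trend, 407 and 407 with a weight per library, and 27 to 140 and 35 to 178 without 1 library, the fewest without inhibitor replicate 3. Without LPS replicate 2 (90 lower), LPS replicate 3 (75 and 85) or inhibitor replicate 1 (32 and 47) or 2 (52 and 91) these counts also moved by over 1.5 times. Causes were not tested. In the comparison of LPS with untreated cells, centring on ribosomal protein genes put the all-gene median at 0.12 instead of -0.06, and 58.6% instead of 45.9% of called genes were higher (3103 higher, 2195 lower); of the 5 called members Mylip lost its call. Of 648 counts of pathway genes 49 moved by over 1.5 times. The pseudocount and DESeq2 alternatives were not run, because the values are logarithms and not counts. A replicate block changed no call of the 7 genes in any comparison, with inhibitor minus LPS at adjusted p = 0.0422 for Abca1 and 0.0499 for Rxra (limma), and gave 95 higher and 113 lower genes there. Same-numbered libraries did not deviate together (correlations across genes of -0.297 to 0.165; 3 of 6 libraries were closest to their own number for inhibitor and LPS), so the numbers were not taken as pairs. Depth limits Abcg1 and Rxra in LPS libraries most.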

Other observations

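Set against untreated cells, macrophages with the inhibitor and LPS had 29 pathway genes called lower and 9 higher over the 6 lists. Of the other liver X receptor targets 7 were called lower and 1 higher of 13 tested (limma; the libraries with LPS alone enter only the estimate of the spread). Mertk was at -4.55 (SE 0.24), Arl4c at -3.01 (SE 0.20) and Lpl at -2.40 (SE 0.11), while Srebf1, named after its value was seen, was the one gene higher, at 1.38 (SE 0.32, adjusted p = 0.00310). Among genes that free, esterify or move cholesterol, 6 of 13 were lower and 2 higher, with Lipa at -2.79 (SE 0.14) and Gramd1a at 2.10 (SE 0.13). Of the cofactor genes 8 of 13 were lower and 2 higher. Of the receptors of apolipoprotein E and substrates of IDOL 4 of 6 were lower and 1 higher, with Trem2 at -2.04 (SE 0.11). Of the other retinoid X receptors and partner receptors 3 of 8 were lower and 2 higher. Of the genes that make or remove sterol ligands 1 of 3 was lower and 1 higher. In this comparison 25.6% of all tested genes were called lower and 21.5% higher.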
